A study of Mus musculus with 2 samples.

Results

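The Tmem176 and Ms4a genes encode small proteins that cross the membrane several times, and 8 of them were examined in liver natural killer (NK) cells: Tmem176a, Tmem176b, Ms4a1, Ms4a4b, Ms4a4c, Ms4a6b, Ms4a6c and Ms4a6d. The members were taken by name, as every probe set annotated to exactly 1 of these gene symbols. The names were chosen with earlier results of these data known. This gave 17 probe sets for 8 genes, of 45101 probe sets and 18194 named genes on the array. Both populations were NK1.1+ CD3- and came by flow sorting from livers of naive wild-type mice of the strain B6; the first was DX5- and the other DX5+. DX5 is an antibody to integrin alpha 2, a surface protein of circulating NK cells, and the study set out to describe expression differences between the populations. Each population was measured on 1 Affymetrix array, so no value has a spread between samples, no difference has a replicate check, and no p-value is given. Neither the age nor the number of the mice is stated in the labels, so whether animals were pooled is unknown.

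Members of the MS4A family (membrane-spanning 4-domain, subfamily A) sit in the plasma membrane beside immune receptors and modify their signals. The best known is CD20, the product of Ms4a1, a surface protein of B cells, and another is the beta chain of the high-affinity IgE receptor of mast cells and basophils. TMEM176A and TMEM176B are more distant relatives with a CD20-like fold. They lie mainly in membranes inside the cell, have been linked to ion flux and to antigen presentation in dendritic cells, and are transcribed in Th17 cells and type 3 innate lymphoid cells (ILC3).

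Signals are MAS5 intensities, a linear brightness per probe set. Over all probe sets the DX5- array had a median of 70.3 and the DX5+ array one of 78.0. A probe set was taken as detected above 76.0 units on the DX5- array or 82.3 units on the DX5+ array, the 95th percentile of 151 probe sets of gene families with little expected use in these cells. The DX5 target gene Itga2 read 29.0 in DX5- cells, below the limit, against 105 in DX5+ cells. In DX5- cells 8 of 9 detected markers of resident NK cells and ILC1 (group 1 innate lymphoid cells that stay in tissue) were 2-fold or more higher. Of 10 markers of circulating NK cells, 9 were 2-fold or more lower. Over all detected genes, 3.76% were higher and 5.65% lower by that much. The lists were chosen with earlier results of these data known, so their counts describe the arrays and test nothing. Although both sorts were CD3-, T cell markers were also higher on the DX5- array, 8 of 12 by at least 2-fold, among them the CD3 chain gene Cd3g (14036 in DX5- cells and 1072 in DX5+ cells). Their part in the values below was not tested, and more RNA per cell cannot be told apart from more cells that carry it.

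Of the 8 genes, 7 were detected, and the Tmem176 genes stood apart from the Ms4a genes in these arrays. Tmem176a and Tmem176b were both at least 4-fold higher in DX5- cells, whereas each of the 5 detected Ms4a members lay within 2-fold on the probe set with the highest signal. Over all 10 detected Ms4a probe sets 4 were higher and 6 lower, 2 of them by 2-fold or more. The same counts over all detected probe sets were not made, so these cannot be set against the array as a whole. By gene, 2 of 7 detected members were 2-fold or more higher, where 3.76% of the 10652 detected genes were. The same 2 were 4-fold or more higher, where 0.667% of detected genes were, and 0 of 7 were 2-fold or more lower, where 5.65% were. Because the members were chosen with earlier results of these data known, these shares describe them and test nothing. With the mean over probe sets, 1 member, Ms4a4b, was 2-fold or more lower, where 517 of 9460 detected genes were. The median log2 ratio, DX5- over DX5+, was 0.39 over the 7 detected members, against -0.016 over all detected genes. The sign of the members' median depends on the probe set rule: with the mean over probe sets it was -0.27, against -0.027 over all detected genes. Scaling decides how the background divides: 400 genes were higher by 2-fold or more and 602 lower as deposited, 576 and 439 with median centring, and 698 and 393 with scaling to spike-in controls. These scalings moved the median of all detected genes to 0.12 and 0.19.

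**Figure D1:**
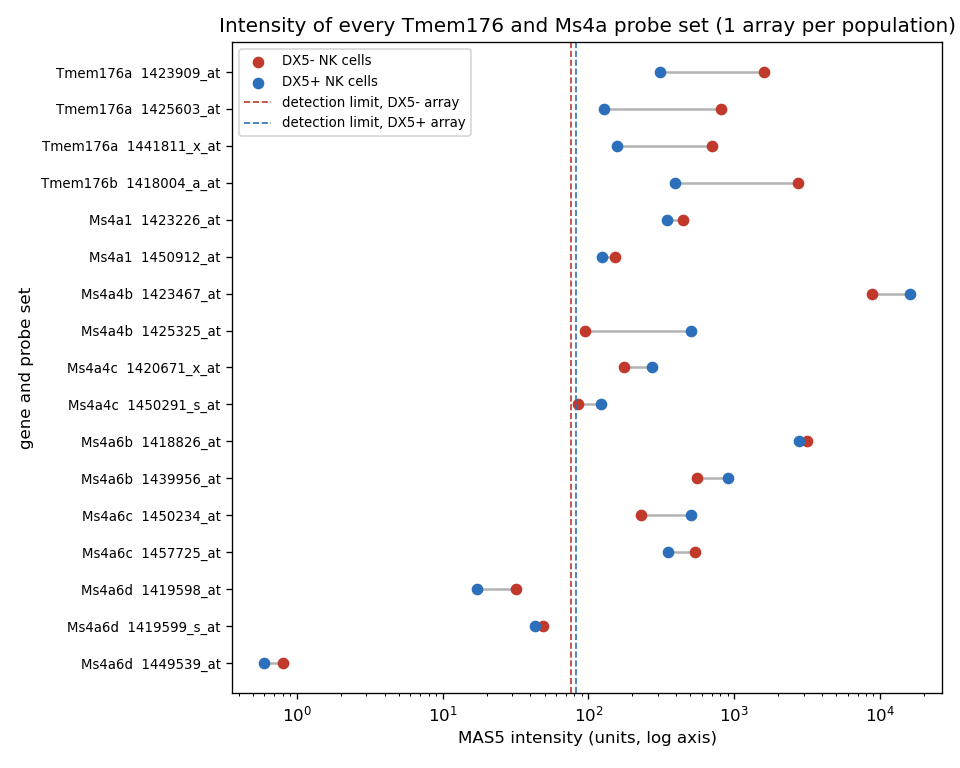
MAS5 intensity (log axis) of each of the 17 probe sets on the DX5- array (red) and the DX5+ array (blue), with the detection limit of each array as a dashed line. All 4 Tmem176 probe sets lie to the right in DX5- cells, the Ms4a probe sets lie close together or go either way, and the 3 Ms4a6d probe sets lie below both limits.

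Tmem176b had 1 probe set, and its signal was 2747 in DX5- cells against 393.5 in DX5+ cells. The intensity was thus 6.98-fold higher in DX5- cells, a log2 ratio of 2.80. Only 0.188% of detected genes had a higher ratio, which placed Tmem176b at rank 21 of 10652.

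Tmem176a, its partner gene, had 3 probe sets, and all were well apart between the arrays. The brightest read 1599 in DX5- cells against 307 in DX5+ cells, a 5.21-fold difference that placed the gene at rank 42. The second read 804 in DX5- cells against 128 in DX5+ cells, which is 6.26-fold higher. The third, whose name marks probes that can match other transcripts, read 703 in DX5- cells against 156 in DX5+ cells, which is 4.51-fold higher. The log2 ratio therefore ran from 2.17 to 2.65 over separate probe sets of the same gene. Among 1896 genes with 3 or more probe sets above both limits, 3 had every one of them at least 4-fold higher in DX5- cells. They were Tmem176a, the acid phosphatase gene Acpp and Tnfsf10, which encodes the death ligand TRAIL, the last 2 named after their values were seen.

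**Figure D2:**
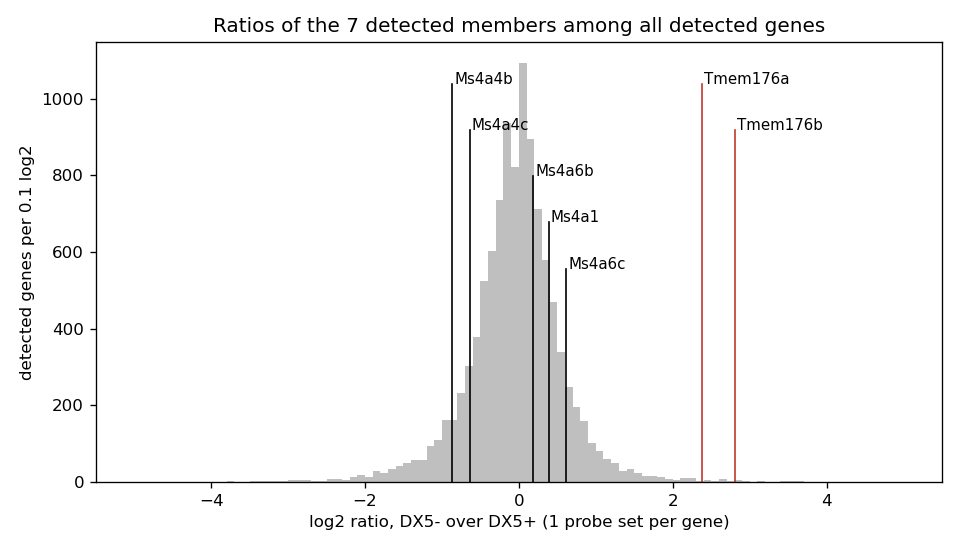
Distribution of the log2 ratio, DX5- over DX5+, over the 10652 detected genes (grey, genes per 0.1 log2; values beyond the axis are in the end bins), with the 7 detected members as lines (Tmem176 genes in red). Tmem176a at 2.38 and Tmem176b at 2.80 lie in the far right tail, and the 5 Ms4a genes lie between -0.86 and 0.62, inside the bulk.

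The Tmem176 genes lie head to head on mouse chromosome 6. Windows ran from 250 bases before to 50 after each annotated start, and some windows of the 2 genes overlap. RefSeq (GRCm38.p6) lists 2 such windows for Tmem176a and 3 for Tmem176b, 1 for each annotated start. Between the genes, the overlap ran from 0 to 219 bases, depending on which starts were paired. An overlapping pair is shown because both genes were higher in the same cells. Which starts these cells use was not tested, nor was any link between the overlap and the ratios. The windows below are chr6:48841233-48841532 on the plus strand for Tmem176a and chr6:48841325-48841624 on the minus strand for Tmem176b, each 5′ to 3′ on its own strand. Capitals mark the 208 bases that the windows have in common, read on opposite strands.
Tmem176a: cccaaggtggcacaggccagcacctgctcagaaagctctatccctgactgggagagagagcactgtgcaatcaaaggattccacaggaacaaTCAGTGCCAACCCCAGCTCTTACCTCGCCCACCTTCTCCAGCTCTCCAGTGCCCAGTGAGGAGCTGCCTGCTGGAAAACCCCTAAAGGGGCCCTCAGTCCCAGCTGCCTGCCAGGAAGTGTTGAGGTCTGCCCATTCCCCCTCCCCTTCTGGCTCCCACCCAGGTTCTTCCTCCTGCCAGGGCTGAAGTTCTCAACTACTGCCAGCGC
Tmem176b: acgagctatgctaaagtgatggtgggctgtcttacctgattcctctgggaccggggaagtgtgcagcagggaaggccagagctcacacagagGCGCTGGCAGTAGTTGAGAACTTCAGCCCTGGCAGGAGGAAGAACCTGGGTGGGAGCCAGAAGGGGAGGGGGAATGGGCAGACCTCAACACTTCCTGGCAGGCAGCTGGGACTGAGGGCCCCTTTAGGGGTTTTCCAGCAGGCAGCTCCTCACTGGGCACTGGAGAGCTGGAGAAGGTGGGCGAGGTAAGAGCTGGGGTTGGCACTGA

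The window table matched 6 of the 8 members with 9 windows in all; Ms4a1 and Ms4a6d did not match. The motifs searched, on both strands, were AGGTCA (the core site of nuclear receptors), AGGTGTGA (T-box factors such as Eomes and T-bet), TGTGGT (Runx factors) and GAGGAAGT (PU.1, a factor of myeloid and B cells). Over all 32851 windows of mouse genes, 16.3% held AGGTCA, 1.28% AGGTGTGA, 16.8% TGTGGT and 3.20% GAGGAAGT. None of the 5 Tmem176 windows held any of these letter strings. Among the 4 Ms4a windows, that of Ms4a4c held TGTGGT once, on the opposite strand at position -211 from the start, and the others held none. With 1 match in all, no motifs overlapped.

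The nearest genes on the chromosome gave smaller ratios than the Tmem176 genes. On one side lie the Gimap genes, small GTPases that support lymphocyte survival, and the rule took the 6 nearest protein-coding genes with a probe set on each side, chosen by position after the members' values were known. Of these 12 neighbours 10 were detected, with 8 higher and 2 lower in DX5- cells and a median log2 ratio of 0.35. Gimap7 was the 1 neighbour past 2-fold, at 3257 in DX5- cells and 1312 in DX5+ cells (2.48-fold higher). Gimap3, the gene next to Tmem176b, read 1416 in DX5- cells against 840 in DX5+ cells. Aoc1, next to Tmem176a on the other side, was below the limit on both arrays.

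Genes of the ILC3 program were set beside the Tmem176 genes. Of 15 listed genes 11 were on the array under a single symbol and 10 were detected. In DX5- cells 3 were higher by 2-fold or more and 1 lower, and the median log2 ratio was 0.10. The summed intensity of the 11 was 25107 in DX5- cells and 11551 in DX5+ cells, and their part in the Tmem176 values was not tested. The genes higher were Ltb (lymphotoxin beta, 6733 in DX5- cells and 1253 in DX5+ cells), Tox (a factor of innate lymphoid cell development, 1503 in DX5- cells and 376 in DX5+ cells) and Ahr (the aryl hydrocarbon receptor, 3191 in DX5- cells and 1398 in DX5+ cells). Nrp1, neuropilin 1, was the gene lower, at 39.1 in DX5- cells, below the limit, and 223 in DX5+ cells (at least 2.94-fold lower). The cytokine gene Il17a, chosen after its values were seen, read 89.0 in DX5- cells against 118 in DX5+ cells, close to the limits. The list's median was 0.88 with a stricter limit, the 99th percentile, and -0.021 with no limit.

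Genes of antigen presentation on MHC class II, a process in which Tmem176b has been studied in dendritic cells, had a median of opposite sign to the Tmem176 ratios. Of 8 detected genes 0 were higher and 1 was lower in DX5- cells by 2-fold or more, and the median log2 ratio was -0.53. Ctss, the lysosomal protease cathepsin S, read 1497 in DX5- cells against 3423 in DX5+ cells. H2-Ab1, a class II beta chain gene, read 1639 in DX5- cells against 2728 in DX5+ cells. Dendritic cell markers had a median of -0.60, which was 0 with the limit raised to the 99th percentile, and 0 of 8 detected were higher by 2-fold or more. The 2 that were lower by that much were Siglech (130.0 in DX5- cells and 441 in DX5+ cells) and Ccr7 (731 in DX5- cells and 1543 in DX5+ cells). Their summed intensity over the genes on the array was 7407 in DX5- cells and 7128 in DX5+ cells, of which Itgax, an integrin chain that NK cells also carry, made up 5739 in DX5- cells and 3971 in DX5+ cells. Itgax was chosen after its values were seen.

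Ms4a4b had the lowest ratio of the 7 detected members. It encodes a protein of T cells and NK cells that associates with the TNF receptor family member GITR. Its brightest probe set read 8768 in DX5- cells against 15958 in DX5+ cells, which is 1.82-fold lower in DX5- cells. A second probe set read 95 units in DX5- cells, just above the limit of 76.0, and 508 in DX5+ cells, which is 5.35-fold lower. Both probe sets point the same way, and their log2 ratios of -0.86 and -2.42 differ by 1.56. A range this wide was seen in 1.46% of the 4397 genes with 2 or more probe sets above both limits.

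The receptor partner list gave values for GITR and for partners of other family members. Tnfrsf18, the GITR gene, read 4640 in DX5- cells against 1612 in DX5+ cells and was 2.88-fold higher, opposite in sign to Ms4a4b. Clec7a, the fungal sugar receptor Dectin-1, which associates with an MS4A4 protein in macrophages, read 132 in DX5- cells against 281 in DX5+ cells. Fcer1g, the signalling gamma chain of Fc receptors, read 22232 in DX5- cells against 22312 in DX5+ cells. Kit, the stem cell factor receptor, read 1738.5 in DX5- cells against 1738.9 in DX5+ cells. Cd40 and Cd79b, receptor genes of B cells, read 138 and 375 in DX5- cells, against 239 and 282 in DX5+ cells. Over the 6 detected partners 1 was higher and 1 lower by 2-fold or more, and the median log2 ratio was -0.0028. Fcer1a, Cr2 and Cd79a were below both limits.

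Ms4a4c, next to Ms4a4b on chromosome 19, had 2 probe sets that agreed in sign. The brighter read 175 in DX5- cells against 273 in DX5+ cells, 1.56-fold lower in DX5- cells. The other read 84.6 in DX5- cells against 122 in DX5+ cells, 1.44-fold lower. Both names mark probes that can match related transcripts, and whether Ms4a4b RNA reached them was not tested. Ms4a4c had no probe set without such a mark.

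Ms4a6b, a T cell and NK cell gene, read close to equal on its brighter probe set and lower on the other. The brighter gave 3171 in DX5- cells against 2795 in DX5+ cells, a log2 ratio of 0.18. The dimmer gave 552 in DX5- cells against 909 in DX5+ cells, a log2 ratio of -0.72. Ratios of opposite sign were found in 39.1% of all genes that had more than 1 probe set above both limits, and Ms4a6b was one of them, so no direction is given for it. Its range of 0.90 between probe sets was less common, met by 12.8% of those genes and by 4.37% of the 1099 in the same quartile of mean signal.

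Ms4a6c had the widest disagreement of the members. Its first probe set, which represents the gene, read 537 in DX5- cells against 351 in DX5+ cells, 1.53-fold higher in DX5- cells. Its second probe set read 228 in DX5- cells against 505 in DX5+ cells, 2.22-fold lower. The log2 ratios of 0.62 and -1.15 span 1.77, a range met by 0.705% of genes with several probe sets. Of those 4397 genes 41, or 0.932%, had 1 probe set at least 1.5-fold higher and another at least 1.5-fold lower, and Ms4a6c was among them. Which transcripts each probe set reads was not tested, and no direction is given for the gene.

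**Figure D3:**
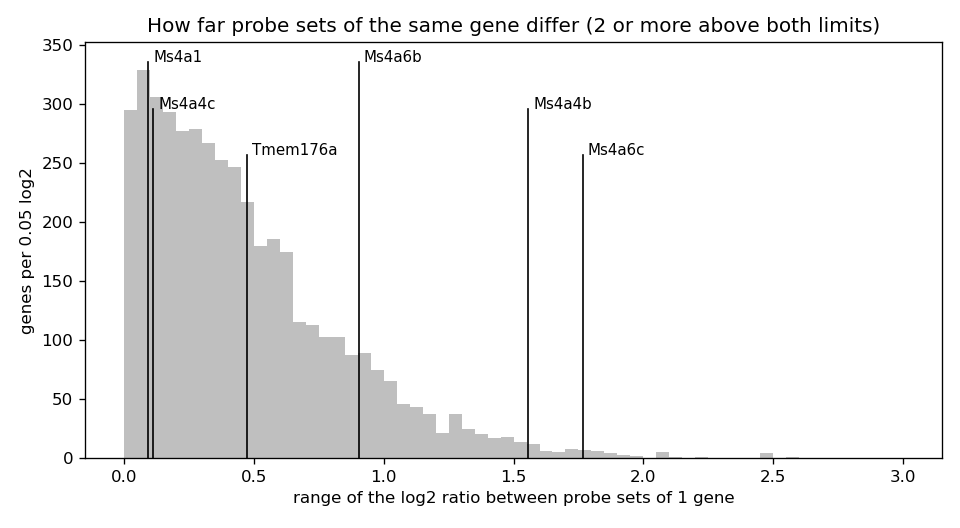
Range of the log2 ratio between probe sets of the same gene, over 4397 genes with 2 or more probe sets above both limits (grey, genes per 0.05 log2), with 6 members as lines. Ms4a1 at 0.092 and Ms4a4c at 0.11 agree closely, Tmem176a at 0.47 lies near the middle, and Ms4a4b at 1.56 and Ms4a6c at 1.77 lie in the right tail.

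Ms4a6d, a myeloid gene, was below the limit on both arrays with all 3 probe sets. They read 48.9, 32.0 and 0.8 in DX5- cells, against 43.0, 17.2 and 0.6 in DX5+ cells, and no fold is given. Monocyte and macrophage markers, the cells where Ms4a6c and Ms4a6d are best known, tended to lower values in DX5- cells. Of 19 markers on the array 9 were detected, of which 0 were higher and 5 lower by 2-fold or more, and their median log2 ratio was -1.04. Lyz1, a lysozyme gene, read 323 in DX5- cells against 2070 in DX5+ cells, and Mpeg1, the pore protein perforin-2, read 516 in DX5- cells against 2190 in DX5+ cells. The summed intensity over the 19 markers was 12500 in DX5- cells and 21046 in DX5+ cells. Most of each sum came from 1 gene, the Fc receptor gene Fcgr3, at 9686 in DX5- cells and 12805 in DX5+ cells. Fcgr3 was chosen after its values were seen. The Kupffer cell markers C1qa, C1qb, C1qc, Clec4f, Timd4, Cd163, Vsig4, Marco and Cd5l and the macrophage gene Ms4a7 were below both limits. The part of myeloid cells in the Ms4a6c values was not tested.

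Ms4a1, which encodes CD20, was detected with both probe sets at similar levels on the arrays. The brighter read 448 in DX5- cells against 343 in DX5+ cells, and the dimmer read 151 in DX5- cells against 124 in DX5+ cells. The log2 ratios of 0.39 and 0.29 lie near the spread between probe sets of a gene, an SD of 0.34. That SD compares probe sets on the same arrays and measures no spread between samples. B cell markers had ratios of similar size: of 12 on the array 10 were detected and 0 were past 2-fold either way, with a median log2 ratio of 0.19. The summed intensity of the 12 markers was 2087 in DX5- cells and 1766 in DX5+ cells. Bank1 and Blk, signalling genes of B cells, read 265 and 210 in DX5- cells, against 187 and 156 in DX5+ cells. Cd40, the listed marker with the largest ratio in either direction, went the other way, at 138 in DX5- cells and 239 in DX5+ cells. Ebf1, chosen after its values were seen, was nearly level, at 232 in DX5- cells and 233.5 in DX5+ cells. Cd79a, which defines B cells with Cd79b, was below both limits, as was Cr2. The part of B cells in the Ms4a1 values was not tested.

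On chromosome 19, Ms4a4b and Ms4a4c resemble each other before their start sites, as do Ms4a6b and Ms4a6c. Their windows are shown so that the likeness of each pair can be seen beside its ratios. Over 153 pairs of 18 Ms4a promoter windows, the median share of the 300 bases that aligned as identical was 51.3%. Ms4a4b and Ms4a4c had the highest share, 76.7%, and Ms4a6b and Ms4a6c the second, 64.0%. The windows, from RefSeq (GRCm38.p6), are all on the plus strand: chr19:11443308-11443607 for Ms4a4b, chr19:11407411-11407710 for Ms4a4c, chr19:11518309-11518608 for Ms4a6b and chr19:11469118-11469417 for Ms4a6c. Capitals mark the bases identical in the alignment of each pair, 230 for the first pair and 192 for the second.
Ms4a4b: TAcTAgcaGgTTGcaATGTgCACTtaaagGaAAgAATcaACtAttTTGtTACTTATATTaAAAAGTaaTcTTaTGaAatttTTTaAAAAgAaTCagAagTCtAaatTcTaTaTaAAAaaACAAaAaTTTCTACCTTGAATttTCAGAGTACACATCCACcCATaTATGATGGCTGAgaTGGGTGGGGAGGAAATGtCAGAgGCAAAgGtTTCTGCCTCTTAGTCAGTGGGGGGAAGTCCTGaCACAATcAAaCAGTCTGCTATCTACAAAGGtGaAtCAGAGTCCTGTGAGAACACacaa
Ms4a4c: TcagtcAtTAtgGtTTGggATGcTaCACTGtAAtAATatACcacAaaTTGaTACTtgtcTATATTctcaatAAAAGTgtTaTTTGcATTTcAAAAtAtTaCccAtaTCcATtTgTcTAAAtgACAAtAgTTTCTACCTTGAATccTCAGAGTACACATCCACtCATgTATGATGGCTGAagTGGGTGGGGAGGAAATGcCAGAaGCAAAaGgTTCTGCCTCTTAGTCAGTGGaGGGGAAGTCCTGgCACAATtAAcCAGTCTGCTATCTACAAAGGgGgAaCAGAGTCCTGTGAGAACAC
Ms4a6b: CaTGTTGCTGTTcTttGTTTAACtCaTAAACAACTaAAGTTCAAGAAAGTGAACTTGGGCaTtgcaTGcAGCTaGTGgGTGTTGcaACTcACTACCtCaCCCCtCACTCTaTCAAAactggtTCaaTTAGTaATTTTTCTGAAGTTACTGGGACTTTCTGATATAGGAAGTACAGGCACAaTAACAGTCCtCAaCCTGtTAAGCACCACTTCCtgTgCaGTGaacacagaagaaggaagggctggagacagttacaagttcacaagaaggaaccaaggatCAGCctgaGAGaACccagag
Ms4a6c: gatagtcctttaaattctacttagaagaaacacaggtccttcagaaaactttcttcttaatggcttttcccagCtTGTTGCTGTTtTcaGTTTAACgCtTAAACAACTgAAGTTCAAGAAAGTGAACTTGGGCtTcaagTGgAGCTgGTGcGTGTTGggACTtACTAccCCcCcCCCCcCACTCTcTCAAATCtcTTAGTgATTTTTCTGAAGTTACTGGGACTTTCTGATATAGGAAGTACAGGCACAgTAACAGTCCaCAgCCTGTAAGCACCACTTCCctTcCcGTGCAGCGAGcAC

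The log2 ratios of the first pair, -0.86 for Ms4a4b and -0.64 for Ms4a4c on their brightest probe sets, had the same sign. Those of the second pair were 0.18 for Ms4a6b and 0.62 for Ms4a6c, and the second probe set of each gene had the opposite sign. Both Ms4a4c probe sets can match related transcripts, and whether Ms4a4b RNA reached them was not tested. Any link between the likeness of the windows and the ratios was not tested either.

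The rest of the family was mostly below the limits. Of 17 Ms4a genes on the array under a single symbol, 6 were detected, 5 of them members. Ms4a15, known from lung, was the other, at 155 in DX5- cells and 591 in DX5+ cells, 3.81-fold lower in DX5- cells on its single probe set. The others, Ms4a2, Ms4a3, Ms4a4d, Ms4a7, Ms4a8a, Ms4a10, Ms4a13, Ms4a18, Ms4a19 and Ms4a20, were below both limits. Of the 12 genes that flank the cluster 5 were detected, all 5 lower in DX5- cells with a median log2 ratio of -0.59. Tmem109, a membrane protein gene, was the 1 past 2-fold, at 1525 in DX5- cells and 4312 in DX5+ cells.

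**Figure D4:**
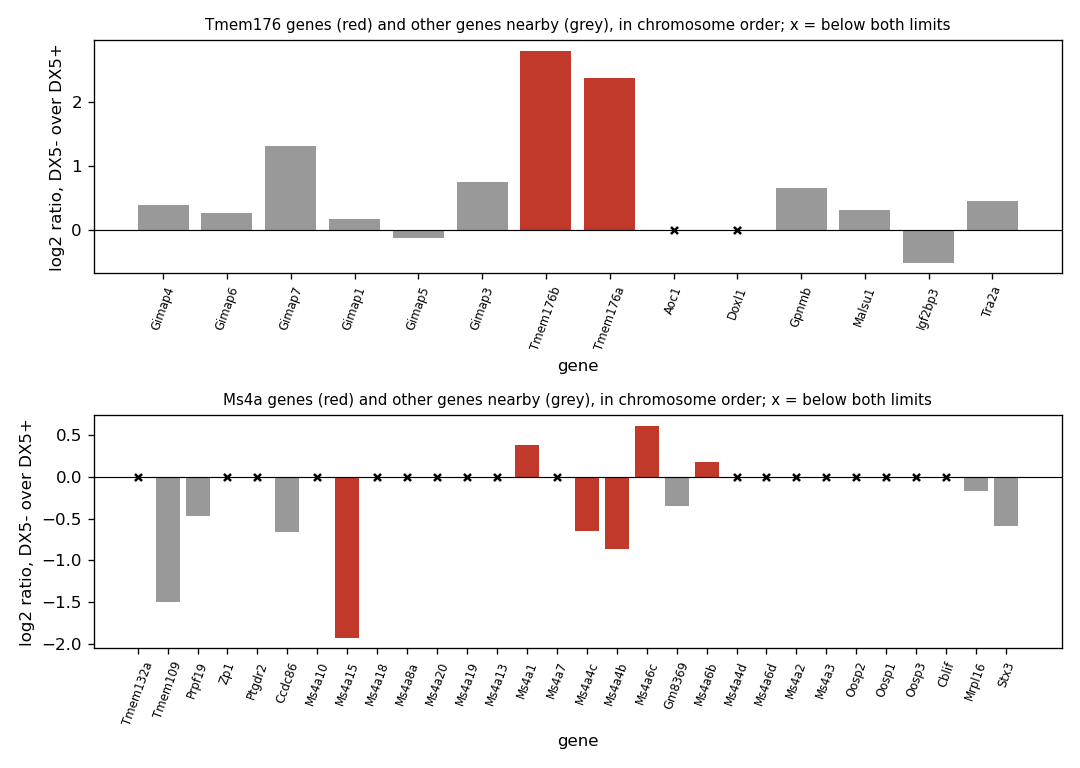
Log2 ratio, DX5- over DX5+, of the Tmem176 genes (top) and the Ms4a genes (bottom), in red, and of the other genes around them, in grey, in chromosome order with 1 bar per gene; crosses mark genes below both limits. The Tmem176 bars at 2.80 and 2.38 exceed every neighbour shown, and Ms4a15 has the lowest bar of its cluster at -1.93.

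Tetraspanins, another family of proteins that cross the membrane several times, were set beside the members. Of 22 on the array 17 were detected, of which 3 were higher and 1 lower in DX5- cells by 2-fold or more, and the median log2 ratio was 0.036. Tspan31 read 1359 in DX5- cells against 313.5 in DX5+ cells (4.33-fold higher), Tspan9 read 484 in DX5- cells against 162.5 in DX5+ cells, and Tspan14 read 1750.3 in DX5- cells against 703 in DX5+ cells. Tspan13 was lower, at 2442 in DX5- cells and 5498 in DX5+ cells. The largest tetraspanin ratio, 2.12 on the log2 scale, was below those of Tmem176a and Tmem176b.

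Other lists give the setting. Resident NK and ILC1 markers had a median log2 ratio of 2.93, near the Tmem176 values, with Cxcr6, a chemokine receptor gene, at 7425 in DX5- cells and 772 in DX5+ cells. The other genes named there were also higher: Il21r, a cytokine receptor gene (7.73-fold), Gzmc, a granzyme gene (12.3-fold), and Itga1, the integrin alpha 1 chain (at least 12.1-fold). Circulating NK markers had a median of -2.69. Among them the T-box factor gene Eomes was 8.09-fold lower, the chymase gene Cma1 13.6-fold lower, the chemokine receptor gene Cx3cr1 7.33-fold lower, and S1pr5, a receptor for tissue exit, at least 20.1-fold lower. T cell markers had a median of 1.37 and a summed intensity of 30448.5 in DX5- cells and 12521 in DX5+ cells. Cd3e, Bcl11b and Camk4 were 4.49-fold, 4.66-fold and 4.73-fold higher, and Cd4 and Themis were below both limits. Neutrophil, basophil and mast cell markers had a median of -0.79, or -1.33 with no limit, and 1 of 10 detected genes was higher by 2-fold or more, the protease gene Mmp9 (4.74-fold). The 4 lower by 2-fold or more included the mast cell protease gene Cpa3 (4.65-fold) and the neutrophil granule genes Ngp (2.94-fold) and S100a9 (2.90-fold). Their summed intensity was 4974 in DX5- cells and 10711 in DX5+ cells.

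**Figure D5:**
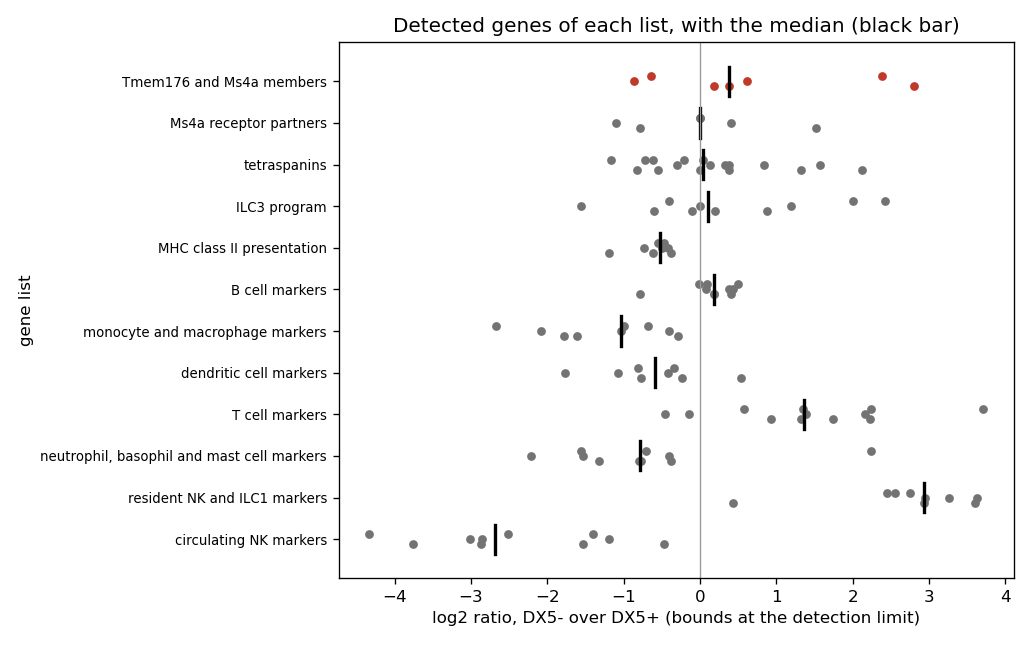
Log2 ratio, DX5- over DX5+, of the detected genes of each list (points, 1 per gene, with bounds where 1 array was below its limit) and the list median (black bar). The 7 detected members (red, top) split into 5 Ms4a genes around 0 and the Tmem176 genes at 2.38 and 2.80.

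By distance over the log2 intensities of the 2 arrays, the genes most like Tmem176b were Rab4a (2645 in DX5- cells and 425 in DX5+ cells, distance 0.12), Cracdl (2674 in DX5- cells and 427 in DX5+ cells, distance 0.12) and Klk8 (2566 in DX5- cells and 351.5 in DX5+ cells, distance 0.19). Those most like Ms4a4b were Spag9 (9234 in DX5- cells and 14928 in DX5+ cells, distance 0.12), the tetraspanin gene Cd9 (8299 in DX5- cells and 14741 in DX5+ cells, distance 0.14) and Bcl2l11 (8612 in DX5- cells and 14449 in DX5+ cells, distance 0.15). With 2 arrays this likeness is a match of values and describes no shared pattern over samples.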

How the data were processed

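Total RNA of sorted DX5- and DX5+ liver NK cells was labelled as biotin cRNA and hybridised to 1 Affymetrix mouse array each, per the labels' protocols. The deposited intensities are linear MAS5 signals, per the submitters' processing notes; no version or setting of that software is stated there. The table has no detection calls, and having 1 array per population limits precision.

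Genes were named from the platform's annotation: 34958 probe sets had 1 symbol, 932 several and 9211 none listed. All 8 members matched RefSeq (GRCm38.p6) by gene identifier. Log2 ratios are DX5- minus DX5+, as deposited, without offset. Where a gene had several probe sets, the one brightest over both arrays (mean log2) represents it. Below the limit on 1 array, that array's limit gives a bound, and counts, medians and largest ratios take the bound as the ratio. The limit families are crystallins, opsins, keratin-associated proteins and the receptors of smell, taste and the vomeronasal organ. Promoter windows were aligned globally. Steps were tested on simulated data with Python 3.11.15, pandas 2.3.3 and numpy 2.4.6. Named genes were every member, every detected relative and partner, up to 4 detected genes per list with the largest ratio in either direction, and the 3 nearest genes by distance. The members and lists were chosen with earlier results of these data known. Alternatives were other scalings, limits and probe set rules.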

Additional observations from a re-analysis of the deposited data

How the results depend on the processing

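The 14 detected member probe sets kept their sign under all 5 alternatives that change the scale: median centring, spike-in scaling, quantile normalization, intensity-dependent centring and an offset of 16 units. Tmem176b ranged from 2.75 to 3.02 and the 3 Tmem176a probe sets from 2.06 to 2.86 on the log2 scale. Tmem176a and Tmem176b were past 2-fold under every alternative run. With the mean over probe sets, Ms4a4b passed 2-fold too, as 1 member lower in DX5- cells, and the median log2 ratio of detected members was -0.27, against 0.39 with the brightest probe set, since Ms4a6b and Ms4a6c then average below 0. Over all genes, 1888 were at least 2-fold higher and 2838 lower with no limit, against 400 and 602, and 698 and 393 with spike-in scaling. With the crystallin-domain genes Crybg1, Crybg2 and Crybg3 among the limit families, added after seeing the data, 7 members were still detected; without probe sets that can match other transcripts it was 6, since Ms4a4c has no other kind. Signals near the limit, such as the second probe sets of Ms4a4b and Ms4a4c, have the least certain ratios. No paired analysis was possible because each population has 1 array, and no replicate could be left out.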
